A study of Mus musculus with 36 samples.

Results

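The comparison is between skeletal muscle of wild type male C57Bl/6 mice of 24 months and of 5 months. Its members are the 6 arrays whose titles name wild type muscle at these ages, of 36 arrays in the series. The study asked how loss of 1 copy of Myc bears on mouse lifespan and health, and it profiled liver, muscle and adipose tissue of wild type and Myc+/- males at both ages on Affymetrix Mouse Gene 1.0 ST arrays. Equal amounts of RNA from the mice of a cohort went into 1 pool per tissue, and every pool was hybridised to 3 technical arrays. The wild type pools held RNA of 6 mice at 5 months and of 5 mice at 24 months. The Myc+/- pools, used beside them, held RNA of 5 mice at 5 months and of 8 mice at 24 months of mice with 1 inactivated copy of Myc. All mice were males kept on the same food under 1 light cycle in a pathogen-free facility. The same cohorts gave the 3 tissues. The labels do not say which muscle was taken, nor is the hour at which the mice were killed stated in the sources used here.

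With 1 wild type pool per age, arrays of a pool share 1 RNA mixture. A limma fit to the 36 single arrays therefore compared 2 mixtures against the error between arrays, and says nothing of the spread between mice. A probe set was called where its Benjamini-Hochberg adjusted p was under 0.05 and the pools differed by at least 1.5-fold. Such genes are said to read higher or lower at 24 months. A second limma fit took the 12 pool means and gave the age difference averaged over both genotypes, with 2 pools per age in muscle. Its error is how far the age difference varied between genotypes, as a value per probe set shared by liver, muscle and adipose tissue. It is therefore not the spread in muscle alone, and can be too small for genes that vary between genotypes mainly in muscle. Only genes past the adjusted threshold of this second fit are said to have risen or fallen. Differences are 24 minus 5 months on the log2 scale, in which a value of 1 is a doubling, and ± is the standard error of the fit over arrays unless stated.

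Skeletal muscle is made of long fused fibres, with satellite cells, nerve endings, vessels, fibroblasts, fat cells and tendon between or beside them. Slow fibres carry the slow isoforms of myosin, troponin and tropomyosin, rely on oxidative metabolism and resist fatigue, while fast fibres carry the fast isoforms and lean more on glycolysis. Ageing muscle is known for loss of mass and strength, for fat between the fibres, and for a rise in inflammatory gene expression.

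Fibre markers were checked against the tissue label. Of 35 tested slow and fast fibre markers, 33 read at least 2-fold above both wild type liver and wild type adipose tissue at 5 months, and 31 did so at 24 months. Array medians lay between 6.97 and 7.01 in the wild type muscle pools. Arrays of a pool correlated at 0.992 at 5 months and 0.990 at 24 months, and the means of both pools at 0.986. The median SD over the arrays of a pool was 0.06 at 5 months and 0.10 at 24 months. Of 21789 probe sets with 1 gene symbol, 13073 passed a filter on low signal and were tested. They stand for 11896 genes.

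The wild type pools differed at 1401 of 13073 probe sets (10.7%). At 24 months 769 read higher (5.88%) and 632 lower (4.83%), and 210 and 147 of these differed by at least 2-fold. The median difference of all tested probe sets was 0.02. With each array centred on its own median, 627 read higher and 789 lower, so the split between directions depended on the scaling. Counted as 1 probe set per gene, 651 genes read higher and 517 lower, and 220 of these 1168 genes belonged to the lists described here. Arrays of the pools did not overlap at 1395 of the 1401 called probe sets.

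The Myc+/- pools came from other mice and other arrays. They differed between the ages at 1092 probe sets (8.35%), of which 578 read higher (4.42%) and 514 lower (3.93%). Of the probe sets that read higher in wild type, 441 also read higher in Myc+/-, which is 57.3% of the wild type list and 76.3% of the Myc+/- list. Of those that read lower, 390 were shared, or 61.7% and 75.9%. In sign alone, 756 of the 769 and 613 of the 632 ran the same way in Myc+/-, where 52.5% of all tested probe sets were positive. Across probe sets, which are not independent replicates, both age differences correlated at 0.839 (Spearman 0.852). The averaged age difference passed the pool-level test at 5560 probe sets (42.5%), with 3073 rising (23.5%) and 2487 falling (19%). Of the wild type calls, 722 of those that read higher rose in this test and 592 of those that read lower fell. The counts of each gene list below are to be read beside the shares of all probe sets given here and above. The age difference itself was unlike between the genotypes at 253 probe sets (1.94%), 102 higher in Myc+/- (0.78%) and 151 lower (1.16%).

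**Figure D1:**
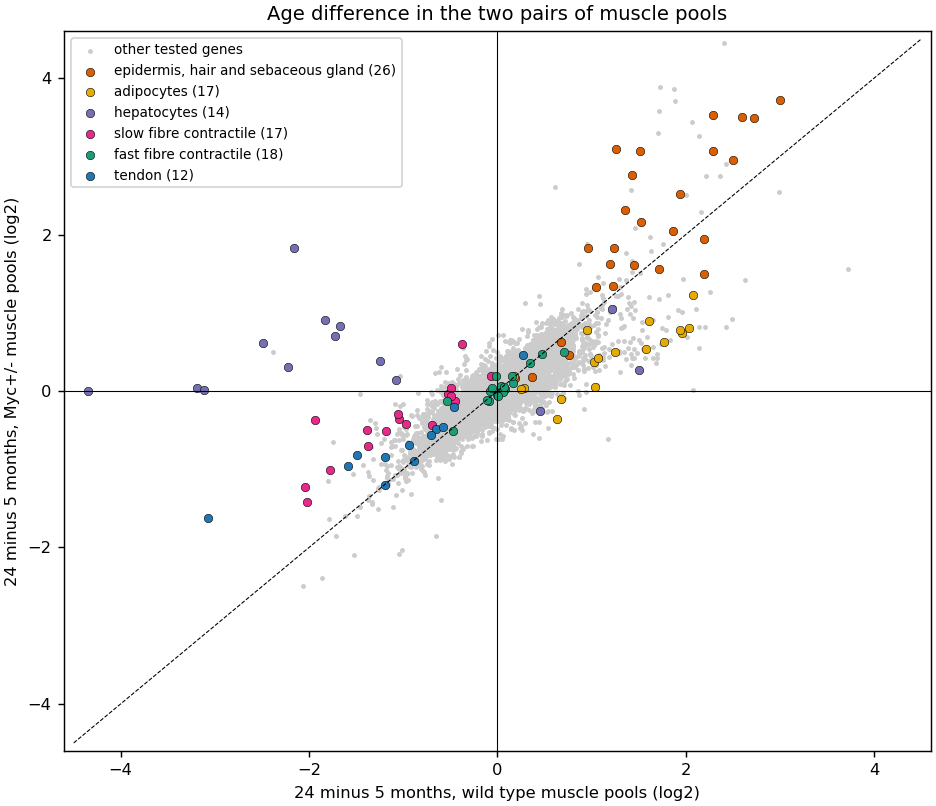
Age difference (24 minus 5 months, log2) of each tested gene in the wild type muscle pools on the horizontal axis and in the Myc+/- muscle pools on the vertical axis, with the dashed line marking equal values. Epidermal genes lie high on both axes, adipocyte genes lie below the dashed line, slow fibre and tendon genes lie low on the wild type axis, and most hepatocyte genes are far below 0 in wild type and near or above 0 in Myc+/-.

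Slow fibre genes read lower at 24 months. Of 17 tested slow fibre contractile genes 11 read lower and 0 higher, with a median of -1.05 against 0.02 for all tested probe sets, and 17 of 17 were negative. In the pool-level test 12 fell and 0 rose, where 19% of all probe sets fell and 23.5% rose. Of 18 fast fibre genes 1 read higher, the myosin light chain kinase Mylk2 at 0.71, and 0 lower, with a median of 0.02, and 3 rose and 1 fell in the pool-level test.

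Myl2, the slow regulatory myosin light chain, read 12.53, 12.45 and 12.52 on the 5-month arrays and 10.62, 10.43 and 10.38 on the 24-month arrays. Every 24-month array lay below every 5-month array, and the difference was -2.03 ± 0.10, or 4.07-fold lower (limma, adjusted p = 5.49e-19). Tnnc1, the slow troponin C that binds calcium, went from 12.42, 12.42 and 12.47 to 10.48, 10.37 and 10.31, a 4.14-fold lower level. Myl3, the slow essential light chain, went from 13.10, 13.12 and 13.09 to 11.27, 11.28 and 11.43. The slow myosin heavy chain Myh7 went from 11.74, 11.70 and 11.73 to 10.52, 10.80 and 10.70, 2.07-fold lower. Csrp3, the Z-disc LIM protein of slow and cardiac muscle, differed by -1.93 ± 0.11, the slow troponin I Tnni1 by -1.39 ± 0.10, the slow troponin T Tnnt1 by -1.38 ± 0.12 and Tpm3, the slow tropomyosin gene, by -1.19 ± 0.11. Smtnl1 and Myoz2 were also called lower, at -1.06 and -0.97. Atp2a2, the slow calcium pump, and Fhl1 missed the fold threshold at -0.53 and -0.49, and the calcium store protein Casq2 lay at -0.07, within array error.

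The fast myosins were not called. Myh4, the myosin of the fastest fibres, read 13.76, 13.68 and 13.79 at 5 months and 13.80, 13.79 and 13.83 at 24 months. Myh1 read 12.95, 12.88 and 12.91 against 12.84, 12.86 and 12.97, and these arrays overlap. Myh2, the myosin of fast oxidative fibres, was below the fold threshold at -0.54 ± 0.11. The calcium buffer Pvalb differed by 0.00, the fast troponin T Tnnt3 by 0.07 and Actn3, the fast Z-disc actinin, by 0.16 (limma, adjusted p = 0.0418).

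**Figure D2:**
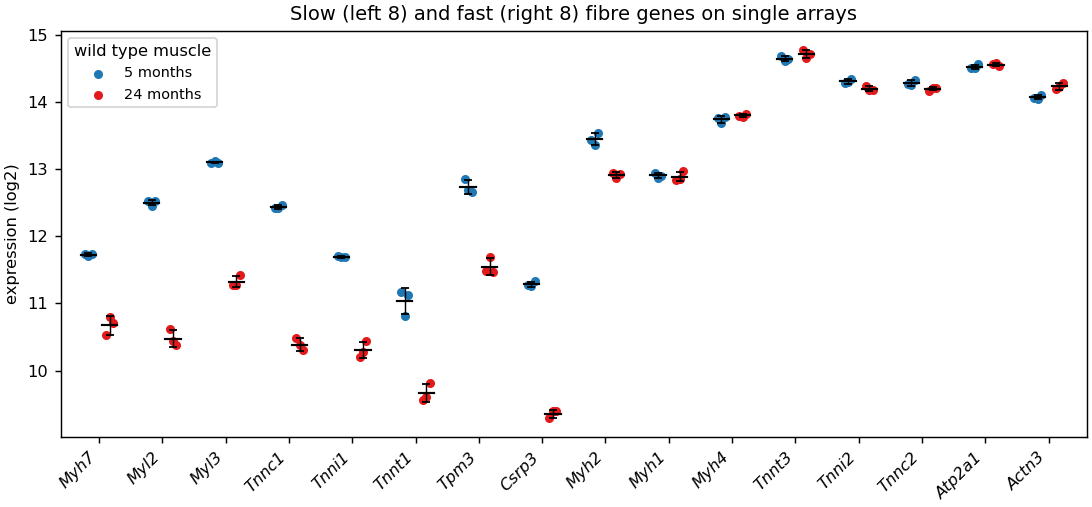
Level (log2) on the 3 arrays of each wild type pool for 8 slow fibre genes on the left and 8 fast fibre genes on the right, blue at 5 months and red at 24 months, with the mean as a bar and the SD over arrays as an error bar. The slow fibre genes are separated by age, from Myh7 at -1.05 to Tnnc1 at -2.05, and the fast fibre genes lie at like levels apart from Myh2 at -0.54.

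The drop of slow fibre genes differed in size between the pairs of pools. In Myc+/- muscle the median of the list was -0.38, with 4 called lower and 1 higher, and 10 of 17 members had a called difference between the genotypes, each toward higher values in Myc+/-. In 9 of them the drop was smaller there, and Ankrd2, a stretch-responsive member, differed by -0.37 in wild type and was called higher in Myc+/- at 0.60. Myl2 differed by -1.43 in Myc+/-, Tnnc1 by -1.22, Myh7 by -0.36 and Csrp3 by -0.38. Csrp3 was already lower in Myc+/- muscle at 5 months, at 10.66 against 11.29. Averaged over genotypes, Myl2 fell by 1.73 (pool-level limma, adjusted p = 0.000285) and Myh7 fell by 0.71 (adjusted p = 0.00845). The error of that fit is shared with liver and adipose tissue, so these p-values do not measure how alike the drop was in muscle of both genotypes. Since the labels do not name the muscle, how far the share of slow fibres in the tissue pieces differed was not tested. In bulk RNA, fewer cells or fibres of a type and less RNA per cell cannot be told apart.

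Other muscle fibre genes were called in part, where 4.83% of all probe sets read lower and 5.88% higher. Of 22 sarcomere and costamere genes 5 read lower and 2 higher. Lmod2 and Lmod3, which help actin filaments grow, differed by -1.09 and -0.77, Xirp1 by -0.75, Myom3, an M-band protein, by -0.66 and the titin cap Tcap by -0.61. Ankrd1, a titin-bound stretch and injury response gene, read 8.25, 8.31 and 8.45 at 5 months and 9.41, 9.38 and 9.60 at 24 months, and rose by 1.13 in the pool-level test (adjusted p = 0.000118). Myom2, the M-band protein of fast fibres, read higher by 0.67. Of 19 excitation and calcium handling genes and 12 embryonic and regenerating fibre genes 0 were called.

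Junction and denervation genes were called higher at a share near that of all probe sets (5.88%), and atrophy genes at a share above it. Of 20 neuromuscular junction and denervation genes 1 read higher, Hdac4, a repressor that rises when the nerve is lost, at 0.79 ± 0.10, and its Myc+/- difference was 0.61. Chrnb1, an acetylcholine receptor subunit, was under the fold threshold at 0.53, and the adhesion molecule Ncam1 lay at -0.56. Of 18 atrophy genes 8 rose in the pool-level test, where 23.5% of all probe sets rose. In wild type 4 read higher and 0 lower, with a median of 0.17. These were not the best known ligases: Fbxo32, the atrophy ligase atrogin-1, was at 0.55 and Trim63, the ligase MuRF1, at 0.06 in wild type. Trim63 was called higher in Myc+/- at 0.72, and the difference between the genotypes passed (0.65; limma, adjusted p = 0.0124). The called members were the stress-induced mTORC1 inhibitor Ddit4 at 0.69, the myostatin antagonist Fst at 0.63, the lysosomal protease Ctsl at 0.63 and Ube4a at 0.63. With arrays centred, the count of this list was 1. Myod1, the myogenic factor of satellite cells and fast fibres, read lower by -0.89 and Mef2a, a transcription factor of muscle genes, higher by 0.83. They were the 2 calls among 15 satellite cell and myogenic genes, where 10.7% of all probe sets were called.

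Oxidative phosphorylation genes shifted down by a small amount with a few members far below the rest. Of 41 tested subunit genes 11 read lower and 0 higher in wild type, with a median of -0.33, and the Myc+/- median was -0.23. The shift was not particular to muscle: the median of the list was -0.36 in wild type liver and -0.23 in wild type adipose tissue. In the pool-level test 23 fell and 4 rose, where 19% of all probe sets fell and 23.5% rose. Ndufa1, a small complex I subunit, read 10.22, 10.14 and 10.19 at 5 months and 8.76, 8.94 and 9.06 at 24 months, with a Myc+/- difference of -1.23. Ndufa5 and Ndufb8, also of complex I, differed by -1.16 and -1.13, and the cytochrome oxidase subunit Cox5a by -0.82. Atp5d, of the ATP synthase, ran the other way at 0.40, below the fold threshold. Sdhaf4, an assembly factor of complex II, and Atp5l, a small ATP synthase subunit, lay outside the list and read lower by -1.62 and -1.46, with -1.60 and -1.49 in Myc+/-.

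The mitochondrial regulators were called in part. Esrrg and Esrra, nuclear receptors that drive oxidative genes, read lower by -1.01 and -0.67, and the mitochondrial deacetylase Sirt3 by -0.59. They were the 3 calls among 20 biogenesis genes, where 10.7% of all probe sets were called. Ppargc1a, the coactivator PGC-1alpha, differed by -0.12 ± 0.07, which was within array error (limma, adjusted p = 0.167). Of 19 citric acid cycle genes, Suclg1 and Sdhb read lower by -0.75 and -0.68, and Pcx, the pyruvate carboxylase that is abundant in fat, read higher by 1.28. Of 21 fatty acid oxidation genes Cpt2 alone was called, at -0.60, and of 20 glycolysis and glycogen genes Ppp1r3c, a glycogen targeting subunit, alone at 0.71.

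Adipocyte genes and lipid synthesis genes read higher at 24 months. Of 17 tested adipocyte markers 14 read higher and 0 lower, with a median of 1.07, and of 22 enzymes and regulators of fatty acid and triglyceride synthesis, 12 read higher and 0 lower, with a median of 0.69. In the pool-level test 11 adipocyte markers rose and 0 fell, and 12 synthesis genes rose and 2 fell. Of all probe sets 23.5% rose and 19% fell in that test. The lists share Agpat2.

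Adipoq, the fat cell hormone adiponectin, read 10.32, 10.20 and 10.35 at 5 months and 12.40, 12.31 and 12.27 at 24 months. The groups are apart on every array, and the 24-month level was 4.11-fold higher. Plin1, which coats the lipid droplet of fat cells, went from 9.74, 9.77 and 9.69 to 11.61, 11.43 and 11.47. Acvr1c, the receptor ALK7 of fat cells, differed by 1.96, Nnat by 1.61, Agpat2 by 1.57 and the hormone leptin, Lep, by 1.02. Car3, abundant both in fat and in muscle fibres, differed by 0.18, within array error. Of 12 brown fat genes on the array 6 were above 0 in wild type. Of the 6 tested 0 read higher and 1 lower, Cox8b at -0.68. Among those too dim to be tested, Ucp1, the uncoupling protein, went from 5.55 to 7.44 in wild type and differed by -0.09 in Myc+/-. Zic1, also too dim, differed by -0.82 in wild type.

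Pck1, the carboxykinase that makes glycerol for triglycerides in fat, read 8.56, 8.53 and 8.44 at 5 months and 11.05, 11.20 and 11.16 at 24 months, 6.17-fold higher. Fasn, the fatty acid synthase, went from 10.63, 10.57 and 10.53 to 12.31, 12.25 and 12.33. Elovl6, which lengthens its product, differed by 2.00 ± 0.08, Dgat1, the last step to triglyceride, by 1.30, Acly, which makes cytosolic acetyl-CoA, by 1.13 and Gpd1 by 1.10. Scd1, the desaturase, was higher by 0.67. Outside these lists Ces1f, a carboxylesterase, read higher by 2.49, Klb, the FGF21 co-receptor beta-klotho, by 2.42, Car5b, a mitochondrial carbonic anhydrase, by 2.21, Nrg4, a factor secreted by fat, by 1.66 and Angptl4, an inhibitor of lipoprotein lipase, by 1.65. Pck1, Fasn, Elovl6, Klb, Ces1f, Car5b and Nrg4 each read at least 2-fold higher in adipose tissue than in muscle in the 5-month Myc+/- pools. Klb and Nrg4 lay below the level of the filter on low signal, 6.91, in both 5-month muscle pools, at 6.27 and 6.58 in wild type. They were tested through the 24-month pools, so their calls support nothing.

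Levels in tissue were set beside the age difference, using the 5-month Myc+/- pools. These are not part of the wild type difference, but their muscle arrays entered the filter on low signal. A gene dim in both 5-month muscle pools was tested only where the 24-month pools read high. Such a gene also reads 2-fold above muscle in other tissues more readily. The shares among the higher genes are therefore in part fixed by the filter, and how far was not tested. Of all tested genes 11.0% read at least 2-fold higher in adipose tissue than in muscle. Among the 651 genes higher at 24 months this held for 283 (43.5%), and among the 517 lower genes for 23 (4.45%). Liver showed a like excess, with 10.7% of all tested genes at least 2-fold above muscle there, 202 of the 651 higher genes and 49 of the 517 lower genes (9.48%). The level in adipose tissue was at least 2-fold above muscle for 16 of 17 adipocyte markers and 15 of 22 synthesis genes, and that in liver for 2 of the 17 and 14 of the 22. In the other direction, 7.74% of all tested genes read at least 2-fold higher in muscle than in both other tissues, against 130 (25.1%) of the lower and 34 (5.22%) of the higher genes. Whether fat cells in the tissue pieces or muscle fibres carried the lipid synthesis genes was not tested.

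**Figure D3:**
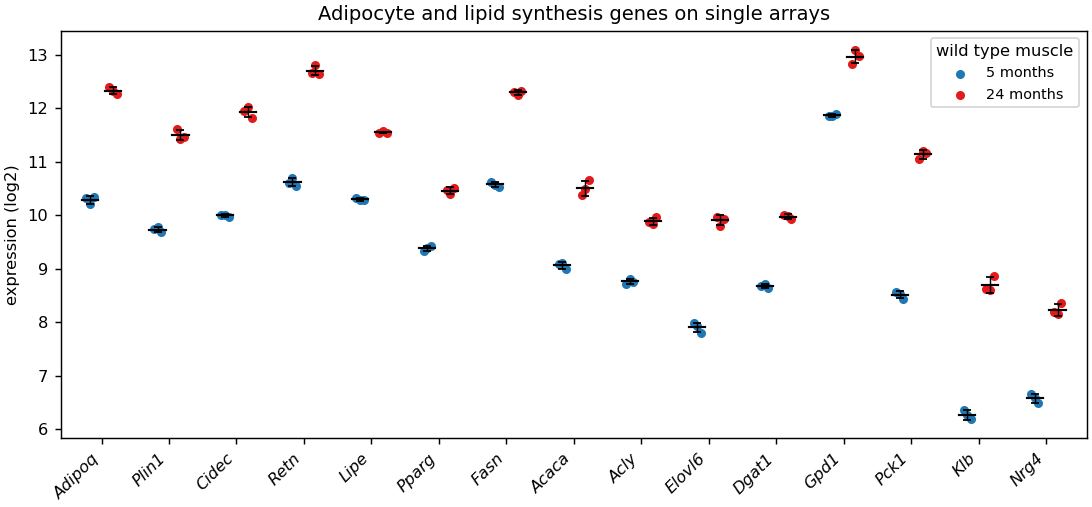
Level (log2) on the 3 arrays of each wild type muscle pool for adipocyte genes (left), lipid synthesis genes and fat-enriched genes (right), blue at 5 months and red at 24 months, with mean bars and SD error bars. Each gene is higher at 24 months on all arrays, for example Adipoq at 10.29 against 12.33 and Pck1 at 8.51 against 11.14. Klb and Nrg4 lie below the level of the filter on low signal at 5 months.

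The adipocyte difference was smaller in the Myc+/- pools. Its median there was 0.50, 7 markers were called higher in both genotypes, and 12 of 17 had a called difference between the genotypes, all with the larger age difference in wild type. At 5 months the genotypes were close, with Adipoq at 10.29 in wild type and 10.34 in Myc+/-, and at 24 months Adipoq was at 12.33 and 11.14. Lipid synthesis genes ran with a Myc+/- median of 0.36 and 6 called differences between the genotypes, all smaller in Myc+/-. Pck1 differed by 1.42 there and Dgat1 by 0.49, while Elovl6 differed by 2.51 there and by 2.00 in wild type, which was not a called difference. In wild type adipose tissue itself, of the same mice, the age differences were -0.24 for Adipoq, -0.67 for Pck1 and -0.34 for Fasn.

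Of 20 cholesterol synthesis and uptake genes 7 read higher and 0 lower, with a median of 0.31 in wild type and 0.13 in Myc+/-. Idi1, the isopentenyl diphosphate isomerase, had means of 7.65 at 5 months and 8.66 at 24 months, with no overlap of arrays, and differed by 1.02 ± 0.11. Nsdhl, Lss and Cyp51, later enzymes of the sterol pathway, were higher by 0.77, 0.66 and 0.65. The count was 4 with arrays centred and 4 without the third 24-month array.

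Markers of tissues other than muscle were among the largest differences between the wild type pools. Of 33 epidermal, hair and sebaceous genes on the array 33 were above 0 in wild type, with a median of 1.42. The filter on low signal, a mean over both ages of 6.91, passed 26, of which 24 were called higher. Of the 26, 7 lay at or below that level in the 5-month wild type pool and 16 in the 5-month Myc+/- pool, so they passed through the other pools, and the count of calls supports nothing. Of the 19 above the level at both ages in wild type 18 read higher and 0 lower. Krt5, a keratin of the basal epidermis, read 7.58, 6.81 and 7.43 at 5 months and 9.79, 9.77 and 10.06 at 24 months. Elovl4, which makes the very long chain fatty acids of skin and is found in other tissues too, read 7.47, 7.22 and 7.38 and then 10.18, 10.37 and 10.53, an 8.03-fold higher level. Krt77 differed by 2.29, the basal keratin Krt14 by 1.87, the desmosome gene Dsc3 by 2.50, the beta defensin Defb6 by 2.28 and Serpina3b by 2.73. Dsc3 and Serpina3b lay below the filter level in both 5-month muscle pools, at 6.05 and 6.37 in wild type. They were tested through the 24-month pools, so their calls support nothing. In Myc+/- muscle Krt5 differed by 3.50 and Elovl4 by 3.73, from 5-month means of 5.98 and 6.09, below the filter level. The mean level of the tested members ran from 7.45 to 7.57 over the 5-month wild type arrays and from 9.05 to 9.19 over the 24-month ones.

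Hepatocyte genes read lower at 24 months in wild type and not in Myc+/-. In wild type 11 of 14 tested markers read lower and 2 higher, and in Myc+/- 0 read lower and 6 higher, with 11 called differences between the genotypes toward Myc+/-. At 24 months 7 of the 14, Serpina1c, Mup3 and Ahsg among them, lay at or below the filter level in wild type. They were tested through the other pools, so the wild type count of calls supports nothing. Of the 7 above the level at both ages 4 read lower and 2 higher. Over all 20 markers on the array, tested or not, the wild type median was -1.69 and 3 were above 0. Alb, serum albumin, read 10.97, 10.91 and 10.94 at 5 months and 8.79, 8.73 and 8.82 at 24 months in wild type, and its Myc+/- means were 9.31 and 11.14. Serpina1c, an antitrypsin made by liver, read 9.34, 9.17 and 9.30 at 5 months and 4.91, 4.68 and 5.18 at 24 months. Its Myc+/- means were 7.29 at both ages. Apoa2, Mup3 and Ahsg, all secreted by liver, were lower by -3.19, -3.12 and -2.49, and in Myc+/- they differed by 0.04, 0.01 and 0.61. None of these 5 genes passed the pool-level test, with adjusted p = 0.0785 for Serpina1c as the smallest and 0.877 for Alb (limma). Alb, Ahsg, Fgb, Apoa1 and Hpx were called in opposite directions in the genotypes, as was the interferon-induced Ifi27l2a, and no other tested gene was.

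Tendon genes read lower. Of 12 tested tendon markers 9 read lower and 0 higher, with a median of -0.91 in wild type and -0.75 in Myc+/-. Of the 11 above the filter level at both ages in wild type 8 read lower and 0 higher. In the pool-level test, whose error is shared with liver and adipose tissue, 11 of the 12 tested fell and 1 rose. Of all probe sets 19% fell and 23.5% rose in that test. Chad, the matrix protein chondroadherin, read 11.81, 11.71 and 11.90 at 5 months and 8.75, 8.63 and 8.81 at 24 months, 8.43-fold lower, against -1.62 in Myc+/-. Comp, a pentameric matrix protein of tendon and cartilage, differed by -1.59, Tnmd, the tendon membrane protein tenomodulin, by -1.49, Fmod, a small proteoglycan, by -1.20 and Kera by -1.19. Prg4, the joint lubricant lubricin, was lower by -1.34, and Acp5, the phosphatase of osteoclasts and some macrophages, higher by 1.79. The sources do not say how tendon was trimmed from the muscle, and its part in the collagen results was not tested.

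Collagen and matrix genes also read lower where called. Of 36 tested members 6 read lower and 0 higher, with a median of -0.18, and 15 fell and 1 rose in the pool-level test. Of all probe sets 19% fell and 23.5% rose in that test. Col1a1, a chain of type I collagen, read 11.11, 11.12 and 10.99 at 5 months and 9.50, 9.62 and 9.47 at 24 months, 2.90-fold lower, with -1.06 in Myc+/-. Col1a2, its partner chain, differed by -1.13, Col12a1 by -1.20, Col8a1 by -0.96 and Col3a1 by -0.84, the last with -0.91 in Myc+/-. Thbs4 was called in this list and in the tendon list, at -0.71. Mfap4, an elastic fibre protein, read lower by -1.79. Of 14 fibroblast and progenitor genes 3 read lower and 0 higher, with a median of -0.37.

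**Figure D4:**
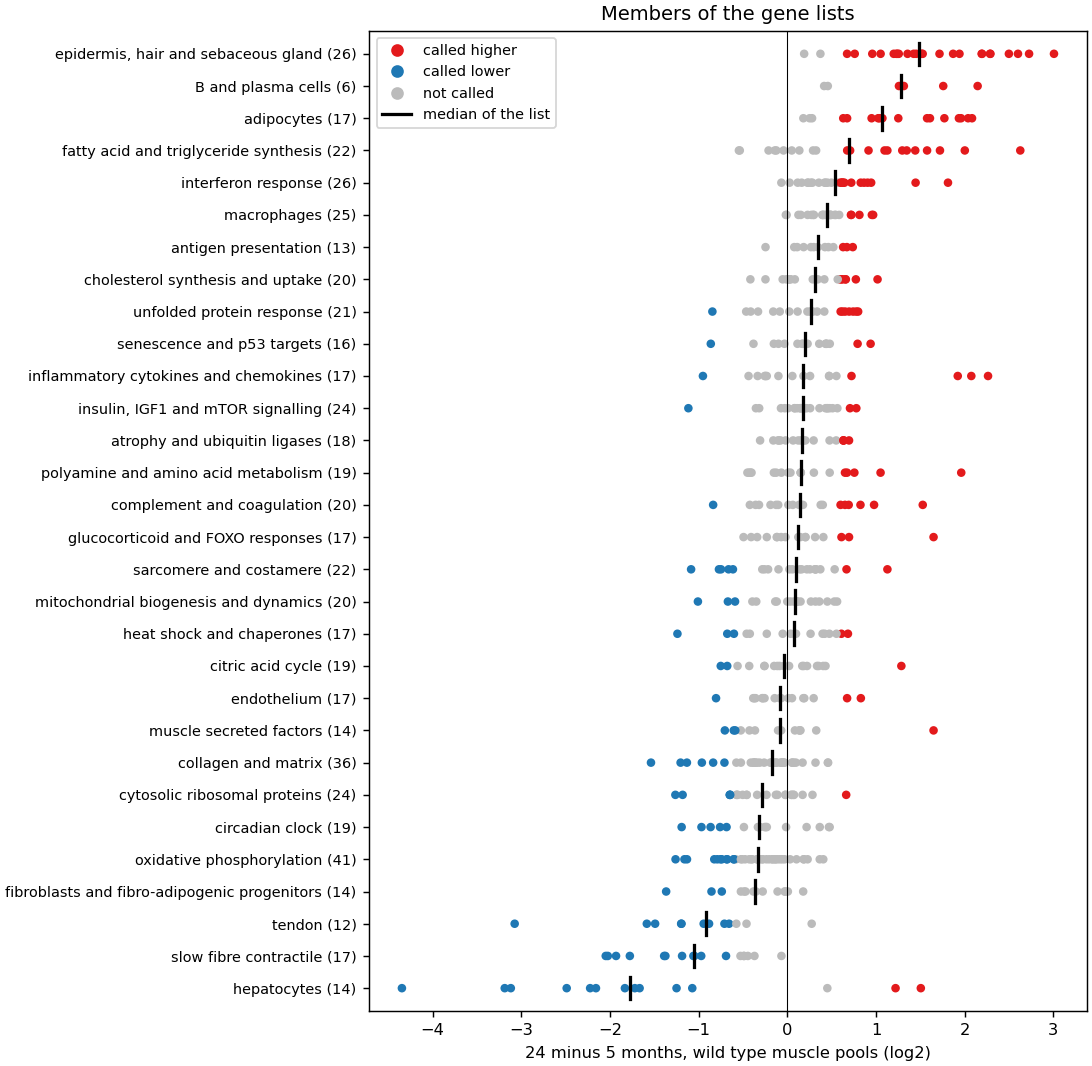
Age difference (log2) in wild type muscle of each tested member of every gene list with at least 5 tested members and 3 calls, red where called higher, blue where called lower and grey where not called, with the median of each list as a black bar and the number tested in brackets. Hepatocyte, slow fibre and tendon lists have the lowest medians (-1.78, -1.05 and -0.91). The epidermal, B and plasma cell and adipocyte lists have the highest (1.48, 1.29 and 1.07). Some epidermal and B and plasma cell members lay at or below the filter level in the 5-month wild type pool. In the 24-month wild type pool 7 hepatocyte members, 1 slow fibre member and 1 tendon member did so.

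Antibody genes read higher at 24 months. Of 16 B and plasma cell markers on the array 15 were above 0 in wild type, with a median of 0.46. The filter passed 6, and 4 of these lay at or below its level in the 5-month wild type pool, so the 4 calls among the 6 were in part fixed by the filter and support nothing. Igha, the IgA heavy chain, read 5.69, 6.21 and 5.66 at 5 months and 7.96, 8.01 and 8.03 at 24 months, and its Myc+/- difference was 3.26. Jchain, which joins IgA and IgM units, differed by 1.76 in wild type and 1.88 in Myc+/-, and Ighm, the IgM heavy chain, by 1.31 and 1.24. Antibody variable segments ran unlike in the genotypes. Igkv6-20 differed by 3.73 in wild type, the most of the tested probe sets that read higher, against 1.56 in Myc+/-, while Igkv10-96 differed by 2.41 and 4.44. Both lay below the filter level at 5 months in both genotypes, at 5.76 and 5.98 in wild type. They were tested through the 24-month pools, so their calls support nothing. Such segments are near copies of each other, so a probe set can read more than 1 of them. Igha differed by 2.71 in wild type liver and 3.54 in adipose tissue of the same mice. Other blood cell lists were mostly too dim to test: 4 of 21 T and NK cell genes were tested, with Ccl5 called higher and Thy1, also found on fibroblasts and nerve, lower by -1.03, and of 16 neutrophil genes 4 were tested and 0 called.

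Chemokines that call in lymphocytes and monocytes read higher too. Of 17 cytokines and chemokines 4 read higher and 1 lower. Cxcl13, which attracts B cells, read 8.02, 7.86 and 7.97 at 5 months and 10.35, 10.03 and 10.25 at 24 months, and rose by 1.77 in the pool-level test (adjusted p = 0.000999). Ccl8, a monocyte chemokine, differed by 2.07 in wild type and 0.01 in Myc+/-, and the difference between the genotypes was -2.06 (limma, adjusted p = 9.14e-13). Ccl5, made by T cells among others, differed by 1.92 and 1.04. Ccl11, the eosinophil chemokine eotaxin, read lower by -0.95 in both genotypes. Of 25 macrophage genes 5 read higher and 0 lower, with a median of 0.44 in wild type and 0.02 in Myc+/-. Cd53 and Ms4a6c were higher by 0.95 and 0.97, and the pan-macrophage marker Cd68 lay at -0.02 in wild type and -0.62 in Myc+/-. Of these 25 genes 24 read at least 2-fold higher in adipose tissue than in muscle at 5 months. C4b, a complement component, was higher by 1.53, and 6 of 20 complement and coagulation genes read higher and 1 lower. Of the 19 above the filter level at both ages in wild type 5 read higher and 1 lower.

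Interferon response genes read higher. These genes are switched on when interferon signalling brings factors of the STAT and IRF families to response elements at their promoters. Of 26 tested members 12 read higher and 0 lower, with a median of 0.53 in wild type and 0.27 in Myc+/-. In the pool-level test 20 rose and 0 fell, where 23.5% of all probe sets rose and 19% fell. The promoters of Rsad2, Ifit3 and Ifit1 are shown because their genes rose and they hold the response element, read here as GAAA, any 2 bases and GAAA on either strand and set in capitals (TTTC in the other reading direction). They run from 250 bases before to 50 after the start, from RefSeq on GRCm38.p6.
Rsad2, chr12:26456403-26456702, minus strand: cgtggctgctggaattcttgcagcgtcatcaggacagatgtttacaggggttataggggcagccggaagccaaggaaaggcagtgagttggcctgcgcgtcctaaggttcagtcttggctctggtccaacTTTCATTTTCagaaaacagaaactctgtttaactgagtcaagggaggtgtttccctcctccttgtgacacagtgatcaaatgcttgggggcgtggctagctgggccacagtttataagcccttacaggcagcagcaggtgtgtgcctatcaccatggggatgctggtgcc
Ifit3, chr19:34583279-34583578, plus strand: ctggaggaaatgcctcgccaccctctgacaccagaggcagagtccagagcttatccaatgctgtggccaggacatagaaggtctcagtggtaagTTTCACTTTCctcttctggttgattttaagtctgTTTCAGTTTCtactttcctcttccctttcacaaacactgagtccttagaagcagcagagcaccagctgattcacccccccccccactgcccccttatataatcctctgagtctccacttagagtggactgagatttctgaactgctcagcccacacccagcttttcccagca
Ifit1, chr19:34640639-34640938, plus strand: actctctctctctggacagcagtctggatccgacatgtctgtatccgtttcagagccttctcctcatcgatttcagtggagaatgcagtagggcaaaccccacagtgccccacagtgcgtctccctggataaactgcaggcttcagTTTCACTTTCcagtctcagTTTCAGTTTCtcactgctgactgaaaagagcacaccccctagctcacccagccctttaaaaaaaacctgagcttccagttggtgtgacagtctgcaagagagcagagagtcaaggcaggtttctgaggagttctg
Rsad2, the antiviral enzyme viperin, with 1 element, read 7.38, 7.21 and 7.00 at 5 months and 8.56, 8.54 and 8.83 at 24 months. Ifit3 and Ifit1, which bind viral RNA or help to, have 2 elements each and differed by 0.90 and 0.83, with 0.74 and 0.86 in Myc+/-. Irf7, the master factor of the response, read 7.12, 6.93 and 7.01 and then 8.65, 8.84 and 9.00, and rose by 1.52 in the pool-level test (adjusted p = 0.000379). Irf7 has no such letters in its window, nor do the called members Cxcl9 and Oasl2. The letters were found in 12 of 21 matched members (57.1%) and in 3.99% of 27025 genes with a promoter in the table. Cxcl9, a chemokine induced by interferon gamma, differed by 0.94 in wild type and -0.01 in Myc+/-. Wild type liver differed by 2.27 for Irf7 and 1.86 for Rsad2, and adipose tissue by 1.05 and 0.84.

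Some genes of the circadian clock read lower. The clock runs on the activators ARNTL and CLOCK, which bind E-boxes and switch on their own repressors, and the factors DBP, TEF and HLF act on D-boxes further down. Of 19 tested clock genes 5 read lower and 0 higher, with a median of -0.32 in wild type and -0.23 in Myc+/-. In the pool-level test 8 fell and 4 rose, where 19% of all probe sets fell and 23.5% rose. The promoters of 3 of the 5 called genes hold an E-box (CACGTG) or a D-box (TTATGTAA, either strand), set in capitals, over the same window and build, and none of these holds both.
Ciart, chr3:95882179-95882478, minus strand: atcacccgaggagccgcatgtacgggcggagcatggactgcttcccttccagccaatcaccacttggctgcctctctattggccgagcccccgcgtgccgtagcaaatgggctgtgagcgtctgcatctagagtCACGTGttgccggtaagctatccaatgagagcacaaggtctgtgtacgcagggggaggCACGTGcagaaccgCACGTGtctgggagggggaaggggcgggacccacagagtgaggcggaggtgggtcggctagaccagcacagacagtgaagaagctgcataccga
Bhlhe41, chr6:145865371-145865670, minus strand: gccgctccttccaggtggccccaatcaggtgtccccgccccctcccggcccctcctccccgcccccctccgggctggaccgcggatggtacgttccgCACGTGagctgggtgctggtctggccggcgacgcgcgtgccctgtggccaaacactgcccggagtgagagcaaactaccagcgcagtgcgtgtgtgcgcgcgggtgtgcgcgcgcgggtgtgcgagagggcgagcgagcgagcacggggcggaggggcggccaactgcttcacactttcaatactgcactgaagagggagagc
Per3, chr4:151044616-151044915, minus strand: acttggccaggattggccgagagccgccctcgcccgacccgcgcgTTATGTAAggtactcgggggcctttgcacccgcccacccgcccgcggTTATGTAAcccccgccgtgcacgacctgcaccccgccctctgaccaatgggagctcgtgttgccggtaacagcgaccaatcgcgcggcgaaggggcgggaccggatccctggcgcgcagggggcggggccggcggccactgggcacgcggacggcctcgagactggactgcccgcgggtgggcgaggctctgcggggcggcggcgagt
Ciart, a repressor of CLOCK and ARNTL whose window has 3 E-boxes, read 10.07, 10.01 and 10.02 at 5 months and 9.04, 8.84 and 8.65 at 24 months, or -1.19 ± 0.14. Bhlhe41, a repressor that itself binds E-boxes, has 1 and differed by -0.87. Per3, a Period gene with 2 D-boxes, differed by -0.69. Dbp, a D-box activator, went from 11.08, 10.94 and 11.04 to 10.06, 9.95 and 10.13, and Hlf differed by -0.76, and neither has these letters in its window. An E-box was found in 5 of 16 matched members (31.2%) against 8.09% of 27025 genes, and a D-box in 1 of 16 (6.2%) against 1.11%.

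The activators read above 0. Arntl differed by 0.36, Clock by 0.47 and the activator Rora by 0.48, each under the fold threshold and each past the pool-level test (limma, adjusted p = 0.0235, 0.00103 and 0.00151). In liver and adipose tissue of the same wild type mice Ciart was at -3.40 and -2.13, Dbp at -3.05 and -1.46 and Arntl at 1.22 and 0.67. The difference from liver passed for all 3 genes (2.21, 2.08 and -0.85 in muscle minus liver), and that from adipose tissue for Ciart alone. The median of the list was -0.63 in liver and -0.59 in adipose tissue. Each cohort gave all its tissues, so the tissues share whatever hour a cohort was killed at, and its part in these values was not tested.

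Many snoRNA genes read lower in both genotypes. Of 39 tested snoRNA genes, whose products guide chemical changes on ribosomal RNA, 21 read lower and 1 higher, with a median of -0.63 in wild type and -0.61 in Myc+/-. In the pool-level test 27 fell and 2 rose. Snora74a read 12.31, 12.26 and 12.31 at 5 months and 10.57, 9.84 and 10.26 at 24 months, and Snora44 differed by -1.87. Snord15b and Snord15a, near copies of each other, differed by -1.72 and -1.79. Of 60 tested miRNA genes 2 read lower and 0 higher in wild type, a share below that of all probe sets, with a median of -0.23. In Myc+/- 5 of them read lower and 0 higher, where 3.93% of all probe sets read lower. In the pool-level test 25 of the miRNA genes fell and 1 rose, where 19% of all probe sets fell. In wild type liver the snoRNA median was -0.86, and in adipose tissue it ran the other way at 0.49, with Snora74a at -3.04 and 0.68.

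**Figure D5:**
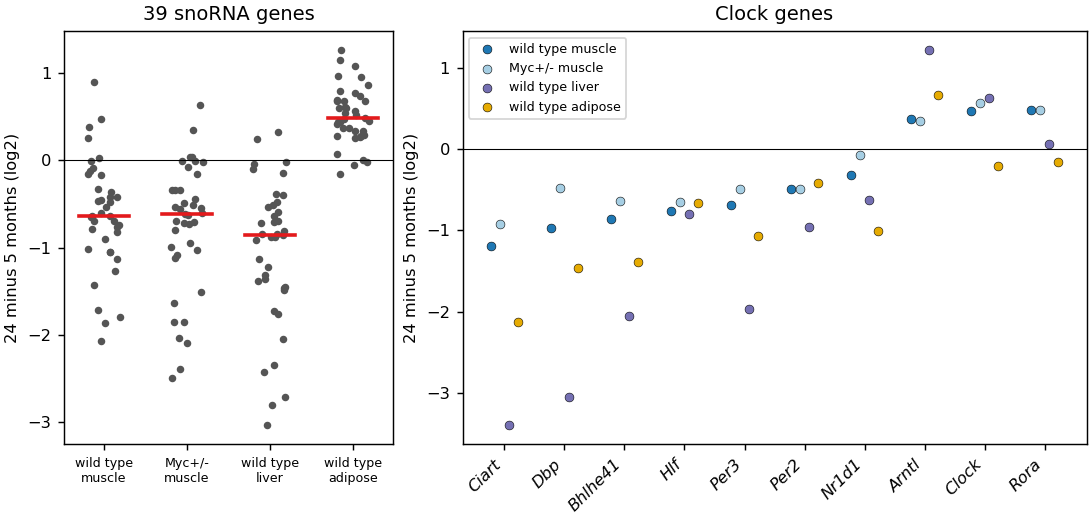
Left, age difference (log2) of 39 snoRNA genes in wild type and Myc+/- muscle, wild type liver and wild type adipose tissue, with medians as red bars at -0.63, -0.61, -0.86 and 0.49. Right, age difference of 10 clock genes in the same comparisons, where Ciart, Dbp, Bhlhe41, Hlf, Per3 and Per2 are below 0 in each and Arntl is above 0 in each.

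Some ribosomal protein genes also read lower. Of 24 cytosolic ribosomal protein genes 5 read lower and 1 higher, with a median of -0.29 in wild type and -0.36 in Myc+/-. In the pool-level test 13 fell and 2 rose, where 19% of all probe sets fell and 23.5% rose. With arrays centred 8 read lower. Rps29 read 12.38, 12.35 and 12.36 at 5 months and 10.89, 10.81 and 10.91 at 24 months, with -1.60 in Myc+/-, -1.32 in liver and 0.42 in adipose tissue. Rps19 and Rpl13 differed by -1.26 and -1.18, also with values above 0 in adipose tissue (0.34 and 0.41). Ribosomal protein genes have many processed copies, and probe sets can read several of them. The labels describe 2 methods of homogenization and do not assign them to samples.

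Genes of protein folding in the endoplasmic reticulum read modestly higher. Of 21 genes of the unfolded protein response 7 read higher and 1 lower, with a median of 0.27 in wild type and 0.25 in Myc+/-. Xbp1, the factor of the IRE1 branch, read 10.89, 10.82 and 10.91 at 5 months and 11.63, 11.64 and 11.67 at 24 months, with 0.66 in Myc+/-. Edem1, which sends misfolded proteins to be destroyed, was higher by 0.80, the disulfide isomerase Pdia4 by 0.74 and Creld2 by 0.70. Ddit3, the stress factor CHOP, read lower by -0.85, with -0.81 in Myc+/-. In the cytosol, the small heat shock protein Hspb1 of muscle fibres went from 12.73, 12.73 and 12.80 to 11.51, 11.57 and 11.45, and its co-chaperone Bag3 differed by -0.68. Dnaja1, a partner of HSP70, was higher by 0.68. The proteasome subunit Psmb4 was higher by 1.11, with 1.23 in Myc+/-. It was 1 of 2 calls among 29 proteasome genes, a share below that of all probe sets (10.7%).

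Amino acid genes held 5 calls, all higher, of 19. Asns, the asparagine synthetase that is induced when amino acids are short, read 7.97, 7.94 and 7.90 at 5 months and 9.65, 10.03 and 10.01 at 24 months. It differed by 1.02 in Myc+/- muscle and by -0.17 and -0.38 in wild type liver and adipose tissue. Glul, the glutamine synthetase, was higher by 1.05, and the serine pathway genes Psat1 and Phgdh by 0.75 and 0.67. Among 16 senescence and p53 target genes, Eda2r, a receptor of the TNF family, read 9.10, 9.12 and 9.02 and then 9.95, 9.89 and 10.22, with 1.31 in Myc+/-. Trp53inp1 was higher by 0.79 and Gadd45b lower by -0.86. In insulin and mTOR signalling, Deptor, an mTOR inhibitor, was higher by 0.78, the kinase Akt2 by 0.71 and Igfbp6 lower by -1.12. They were the 3 calls of 24, where 10.7% of all probe sets were called.

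Myc itself, the gene with 1 inactivated copy in the Myc+/- cohorts, read 9.00, 8.97 and 8.91 at 5 months and 9.14, 9.13 and 9.32 at 24 months in wild type muscle, which was under the fold threshold at 0.24. The Myc+/- pools read lower at both ages, at 8.48 and 8.37, in the direction the labels give. Pvt1, its noncoding neighbour, differed by 0.49. Of 24 Myc target genes of ribosome biogenesis 1 read higher and 0 lower, with a median of 0.02, the same as for all tested probe sets.

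Set against the other tissues of the same wild type cohorts, the muscle age difference was unlike that of liver at 1286 probe sets (9.84%), with 473 higher in muscle (3.62%) and 813 lower (6.22%). Against adipose tissue it was unlike at 2584 (19.8%), with 1424 higher (10.9%) and 1160 lower (8.87%). With arrays centred the split against liver was 617 and 616. Elovl4 differed more in muscle than in liver by 3.26 and than in adipose tissue by 3.15, and Pck1 than in adipose tissue by 3.30. Myl2 differed by 0.23 in liver and -0.01 in adipose tissue, and Chad by -0.38 and 0.19. Ndufa1 differed by -1.26 in muscle and -1.34 in liver, and Rps19 by -1.26 and -1.21, and neither had a called difference between these tissues. Asns, at 1.96 in muscle, had called differences of 2.13 from liver and 2.34 from adipose tissue.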

How the data were processed

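Expression was measured on 36 Affymetrix Mouse Gene 1.0 ST arrays, 3 technical arrays for each of 12 pools. The authors deposited log2 expression values per probe set. Per the submitters' processing notes, RMA and Affymetrix Expression Console were used, with no role, version or settings, and the labels name both a 3' IVT and a whole-transcript labelling kit, so the chemistry is not settled. No further normalization was applied. Among 35556 probe sets, 21789 had 1 gene symbol in the platform annotation, 1621 had several and 12146 were not listed. Entrez identifiers of 21698 matched a table of RefSeq genes (GRCm38.p6), with 0 symbols changed.

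Probe sets with 1 symbol and a mean over the 12 muscle arrays above the 40th percentile were tested (13073). The files give no detection calls, and the number of arrays limits the precision. limma 3.58.1 in R 4.3.3 was fitted to 36 arrays and 12 group means (24 residual and 11.6 prior degrees of freedom, intensity trend), and separately to 12 pool means with tissue, age-in-tissue and genotype-in-tissue terms (3 residual and 4.24 prior). P-values of the first fit measure the spread between technical arrays only. Benjamini-Hochberg adjustment ran over all probe sets tested. Both fits were run on simulated data. For the pool-level fit these had the same size of spread between genotypes in every tissue, so they cannot test the case where tissues differ in it. A gene with several probe sets is represented by the brightest in muscle. Of 1111 genes in 52 lists, 1000 were on the array and 853 were tested. The members and lists were chosen with earlier results of these data known, and no set test was run. Genes named were drawn from the 15 protein coding genes with the largest called wild type difference in each direction. They were also drawn from the 10 in each direction called in both genotypes, and some genes of these sets are not named. The 5 in each direction with the largest difference between genotypes or tissues are named. So are up to 4 members per list plus those needed to say what a list held, Myc, Pvt1 and the fibre type myosins. Alternatives were other filters, minimum folds, centring, quantile normalization, no trend, a replicate block, and leaving out each array.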

Additional observations from a re-analysis of the deposited data

Results flagged for a closer look

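The muscle age difference was unlike between the genotypes at 253 probe sets (limma on single arrays). The largest differences toward Myc+/-, as Myc+/- minus wild type, were in liver-made proteins, with 4.35 for Serpina1c, 3.99 for Alb, 3.23 for Apoa2, 3.13 for Mup3 and 3.10 for Ahsg. Those toward wild type were -2.17 for the antibody segment Igkv6-20, -2.06 for Ccl8, -1.79 for Ifi27l2a, -1.60 for Klb and -1.59 for B3galt2. Igkv6-20 and Klb lay below the filter level in both 5-month muscle pools and were tested through the 24-month pools. Serpina1c, Mup3 and Ahsg lay below it in the 24-month wild type muscle pool and were tested through the other muscle pools.

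The wild type muscle age difference was unlike that of wild type liver at 1286 probe sets. Muscle minus liver was 3.26 for Elovl4, 3.04 for Moxd1, 3.01 for Ces1f, 3.00 for Thrsp and 2.94 for Serpina3b. It was -4.21 for Serpina1c, -3.86 for Lcn2, -2.97 for Apoa2, -2.77 for Prg4 and -2.75 for Mup3. Moxd1 and Lcn2 differed by -0.08 and 0.14 in muscle, while the liver pools differed by -3.12 for Moxd1. Serpina3b lay below the filter level in both 5-month muscle pools, and Serpina1c and Mup3 in the 24-month wild type muscle pool. They were tested through the other muscle pools.

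Against wild type adipose tissue 2584 probe sets were unlike. Muscle minus adipose was 4.06 for Serpina3b, 3.30 for Pck1, 3.15 for Elovl4, 2.91 for Nrg4 and 2.82 for Aldh1a7. It was -5.79 for Serpina1c, -4.28 for Apoa2, -3.95 for Ahsg, -3.53 for Pzp and -3.53 for Alb. In all these, the error is between technical arrays of single pools. Serpina3b, Nrg4 and Aldh1a7 lay below the filter level in both 5-month muscle pools and were tested through the 24-month pools. Serpina1c, Ahsg and Pzp lay below it in the 24-month wild type muscle pool.

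Among 13767 probe sets without exactly 1 gene symbol, which no comparison above used, 1276 differed between the wild type muscle pools (9.27%), 721 higher and 555 lower at 24 months.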

How the results depend on the processing

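With 1 wild type pool per age, no comparison here measures the spread between mice, and the error is that of technical arrays except in the pool-level fit. Whether replicate numbers pair arrays cannot be settled from 3 numbers. With the pool mean subtracted, same-numbered wild type arrays of 5 and 24 months correlated at -0.08, 0.28 and 0.13, and 2 of 3 numbers correlated best with themselves. Same-numbered 24-month arrays of wild type and Myc+/- correlated at 0.22, 0.49 and 0.16, with 2 of 3 best with their own number. With the replicate number as a block the counts were 1401 for wild type, 1092 for Myc+/-, 255 for the difference between genotypes, 1290 against liver and 2584 against adipose tissue. Counts moved by over 1.5 times where at least 2-fold was required (357 for wild type, 218 for Myc+/-, 70 between genotypes, 387 against liver, 773 against adipose tissue), with 1.5-fold added to the pool-level threshold (1151), without a filter on low signal (410 between genotypes) and with a 60th percentile filter, which tests fewer genes (164 between genotypes, 851 against liver). Leaving out 1 array at a time gave 1285 to 1556 for wild type, 1083 to 1167 for Myc+/-, 226 to 286 between genotypes, 5221 to 5614 for pools, 1260 to 1381 against liver and 2427 to 2725 against adipose tissue. Without the epidermal, adipocyte, hepatocyte and tendon lists and the small RNAs, an alternative chosen after seeing the data, 727 wild type probe sets read higher and 578 lower.

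Of 3214 values for 234 genes, 3132 kept their direction and their side of the threshold, 45 lost the call, 28 gained it and 9 turned. The turned values were all of uncalled genes near 0, and the cause was not tested. Bpgm (0.03) was at -0.0185 with arrays centred, -0.0147 with quantile normalization and -0.161 to 0.260 without single arrays. Cela1 (0.15) ran from -0.0368 to 0.292 without single arrays. Myh1 (-0.02) was at 0.00991 with quantile normalization and -0.0575 to 0.00698 without single arrays. Of 419 values for 30 lists, 409 stayed within 1.5 times and 9 moved. The 60th percentile filter, which tests fewer members, left 9 epidermal, 5 interferon and 3 amino acid genes called higher, and the hepatocyte list, with 2 members called lower, turned its median.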
